A study of Mus musculus with 8 samples.

Results

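The 56 genes described here encode nuclear-encoded members of the mitochondrial respiratory chain and enzymes of the tricarboxylic acid (TCA) cycle. Among the listed TCA cycle genes, Idh1 and Mdh1 encode cytosolic forms that lie outside the mitochondrial cycle. The 56 genes were chosen by name: every probe set whose platform annotation named 1 of 57 listed genes, and no other gene, was taken. This gave 56 of the 12393 genes with a singly named probe set, and 112 of the 22626 probe sets that were not array controls. Of the 57 genes, Cox7b had no singly named probe set here, and 1 probe set that named Ndufb2 together with another gene was left out. The 56 genes comprised 24 genes of complex I, 4 of complex II, 7 of complex III and its electron carrier cytochrome c, 6 of complex IV and 15 of the TCA cycle. Of the 112 probe sets, 109 passed the filter on low signals (highest signal of at least 59.1), among them the brightest probe set of each of the 56 genes, which represents its gene below. The 3 that did not pass were further probe sets of Ndufb9, Uqcrq and Idh3a, genes that each had several tested probe sets.

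The cells were mouse bone marrow derived macrophages, kept for 7 days in medium with 50 ng/ml of M-CSF, a macrophage growth factor. Marrow came from wild-type mice or from Vdr tm1 Rge knockout mice (Vdr-/-), which by their label lack the vitamin D receptor. Cells of each genotype were untreated, or were treated with calcitriol (1α,25(OH)2D3, the hormonal form of vitamin D), with IFN-gamma (a T and NK cell cytokine that activates macrophages) or with both, for 24 to 48 hours. Doses were not stated in the sources used here, and the labels also describe macrophages elicited with thioglycolate, although each sample's source names marrow derived cells. Each of the 8 groups had 1 array and no replicate, so every p-value rests on the spread of a contrast across the other factors. The limma fits moderated that spread towards that of probe sets with similar signal. Each p-value and SE thus also draws on other probe sets. Genotype and the individual mice or cultures cannot be told apart, and precision is limited by the number of arrays. In such bulk RNA, fewer cells of a type and less RNA per cell cannot be told apart.

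The TCA cycle oxidises acetyl groups in the mitochondrial matrix and passes their electrons to NADH and, through succinate dehydrogenase, to the quinone pool. Complex I takes electrons from NADH, complex II is succinate dehydrogenase itself, complex III hands the electrons to cytochrome c, and complex IV passes them to oxygen. Macrophages activated with inflammatory stimuli are known for a shift towards glycolysis and for a TCA cycle whose intermediates are drawn off, for example into itaconate.

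The arrays also differed in their control ratios and Vdr signals. With 1 array per group, a trait of an array and one of its group cannot be told apart. The signal ratio of 3' to 5' Gapdh control probe sets, which rises when the labelled RNA is truncated, was 7.67 on the wild-type calcitriol array, 4.82 for untreated Vdr-/-, 3.06 for Vdr-/- with IFN-gamma and between 0.853 and 1.65 for the other 5. The same ratio of actin control probe sets was 4.08, 3.27 and 1.53 on those 3 arrays and between 1.39 and 1.81 on the other 5. By actin, Vdr-/- with IFN-gamma was thus not raised. Both Vdr probe sets went against the labels of the untreated arrays (6.7 and 5.3 on the array labelled wild type, 90.3 and 63.2 on the array labelled Vdr-/-) and were higher in wild type under the other 3 treatments. Whether these probe sets lie in the deleted part of Vdr was not stated in the sources used here, and the genotype may therefore go unchecked by them. All 9 macrophage markers measured, among them Csf1r and Cd68, were above the median signal of 59.1 on every array. Of the 8 stromal markers none was, and of the 8 neutrophil and precursor markers 1 was. Signals are linear intensities on the deposited scale, and changes are differences of log2 signals after signals below 15.5 were raised to that floor.

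Most signals of the respiratory chain and TCA cycle genes lay above the floor, with 2.41% of the values of the 109 probe sets below it. These probe sets had already passed the filter on low signals, so a small share below the floor is partly built in. Of the 56 genes, all 24 of complex I, all 4 of complex II, all 7 of complex III and cytochrome c, 5 of 6 of complex IV and 12 of 15 of the TCA cycle were above 59.1 on all 8 arrays. Within complex I the brightest probe set was that of Ndufa1, a small accessory subunit (1577.3 to 4679), and the dimmest that of Ndufa9, an accessory subunit of the matrix arm (81.5 to 494.3). In complex II these were Sdhb, the iron-sulfur subunit (1289.3 to 3476.5), and Sdhc, a membrane anchor (78.7 to 211). In complex III they were Uqcrb (6596.9 to 12173.3) and the core subunit Uqcrc1 (153.2 to 673.9). In complex IV they were Cox5b (3826.8 to 11015.5) and Cox7c (5.2 to 87.1), and in the TCA cycle the cytosolic malate dehydrogenase Mdh1 (1358.3 to 3603.2) and Suclg2, the beta subunit of GTP-forming succinyl-CoA ligase (7.4 to 122.6). Probe sets differ in how they bind, so these ranges set no gene's level against another's.

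**Figure D1:**
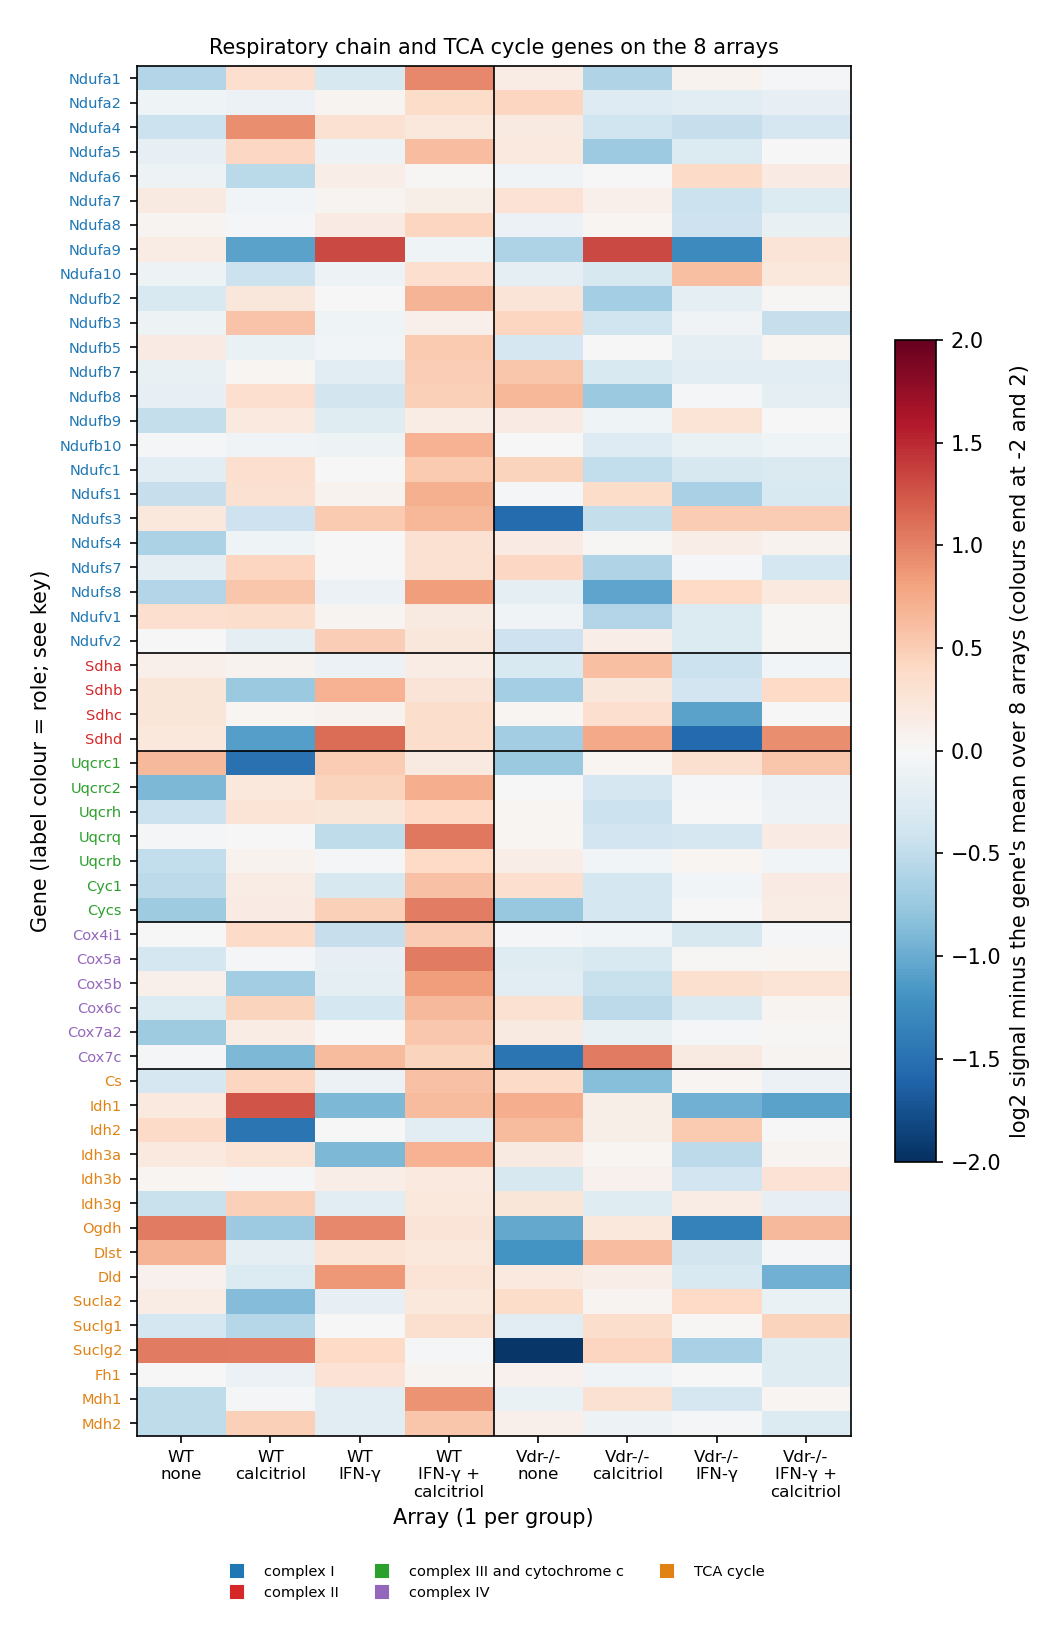
Heat map of the 56 genes (rows, by role) on the 8 arrays (columns); colour is the log2 signal minus the gene's mean over the 8 arrays. On the wild-type array with IFN-gamma and calcitriol 27 of the 56 genes had their highest signal and none its lowest.

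Arrays with IFN-gamma were compared with those without it over the 4 pairs that shared genotype and calcitriol. Of the 56 genes, Ndufs3 and Cycs rose, Idh1 fell and the other 53 did not pass the test (limma, adjusted p under 0.05). Among all 18058 tested probe sets 3.43% passed, 2.15% higher and 1.27% lower. The median change of the 41 respiratory chain genes was 0.19 on the log2 scale, with 29 of 41 above 0. That of the 15 TCA cycle genes was 0.05, with 10 of 15 above 0, and that of all tested probe sets was -0.08. At an unadjusted p under 0.05, 9 of the 56 genes were higher and 1 was lower, and of all tested probe sets 6.16% were higher and 6.27% lower. The TCA cycle median was -0.010 without the wild-type calcitriol pair and -0.022 without the 2 arrays with the highest Gapdh ratio, and the chain median was 0.10 without that same pair and 0.32 with the Vdr-/- untreated and IFN-gamma arrays left out. Higher in 4 of 4 pairs were 8 of the 56 genes, against 7.55% of all tested probe sets, and lower in 4 of 4 pairs was 1, against 10.4%.

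Ndufs3 encodes a core subunit of the arm of complex I that carries the iron-sulfur clusters. Its signals without IFN-gamma were 971.5 and 633.1 in wild type, untreated and with calcitriol, and 290.4 and 604.2 in Vdr-/-. With IFN-gamma they were 1212.9 and 1326.5 in wild type, without and with calcitriol, and 1199.7 and 1197 in Vdr-/-. All 4 arrays with IFN-gamma were thus above all 4 without, and the lowest was the Vdr-/- untreated array. Ndufs3 rose by 1.11 ± 0.25 (moderated SE, 4 pairs) on the log2 scale, or 2.15-fold (limma, adjusted p = 0.00852), and was higher in 4 of 4 pairs. Its pair changes ran from 0.32 to 2.05, and the moderated SE is not the spread of these pairs alone. The pairs that hold neither of the 2 arrays with the highest Gapdh ratio, of which that untreated array is one, changed by 0.32 in wild type without calcitriol and 0.99 in Vdr-/- with it. A limma fit without those 2 arrays, which had additive terms in place of the pairs, gave 0.69 (adjusted p = 0.439). Its promoter is the 300 bases from 250 before to 50 after the RefSeq start site (GRCm38.p6, chr2:90904672-90904971, minus strand), shown because the gene was called. Capitals mark a match to CCGGAAGT, the core bound by ETS family factors with GABPA, which lies on the opposite strand.
Ndufs3: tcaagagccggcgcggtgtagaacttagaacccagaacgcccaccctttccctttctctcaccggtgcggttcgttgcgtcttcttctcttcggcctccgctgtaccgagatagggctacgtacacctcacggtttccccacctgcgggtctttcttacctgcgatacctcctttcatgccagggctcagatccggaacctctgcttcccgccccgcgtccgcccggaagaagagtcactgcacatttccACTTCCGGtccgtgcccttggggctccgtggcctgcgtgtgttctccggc

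Cycs encodes cytochrome c, the soluble carrier between complexes III and IV and a trigger of apoptosis when it leaves mitochondria. Its signals without IFN-gamma were 361.9 and 664.1 in wild type, untreated and with calcitriol, and 352.2 and 467.4 in Vdr-/-. With IFN-gamma they were 827.6 and 1204.6 in wild type, without and with calcitriol, and 590.8 and 659.5 in Vdr-/-. The array with both agents in wild type was the highest, and the groups overlapped, since wild type with calcitriol alone was above both Vdr-/- arrays with IFN-gamma. Cycs rose by 0.82 ± 0.23 (moderated SE, 4 pairs), or 1.77-fold (limma, adjusted p = 0.0453), and was higher in 4 of 4 pairs. Its pair changes ran from 0.50 to 1.19. Its 3 probe sets gave changes of 0.71 to 0.82, of which only the brightest passed. Over 15 alternative settings the change stayed between 0.68 and 0.94, and it passed the limma test in 1 of them (adjusted p from 0.0458 to 0.784). Settings of the filter, floor, trend or blocks left the change itself as it was. Its promoter (GRCm38.p6, chr6:50566520-50566819, minus strand) is shown with a match to GCGCATGCG, the palindrome-like core bound by NRF1, in capitals and on the opposite strand.
Cycs: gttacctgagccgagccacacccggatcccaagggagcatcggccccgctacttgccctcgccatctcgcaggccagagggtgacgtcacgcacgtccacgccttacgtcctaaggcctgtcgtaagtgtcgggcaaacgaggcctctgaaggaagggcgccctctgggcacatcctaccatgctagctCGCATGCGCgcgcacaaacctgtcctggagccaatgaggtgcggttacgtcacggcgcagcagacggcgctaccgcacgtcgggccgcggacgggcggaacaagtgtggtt

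**Figure D2:**
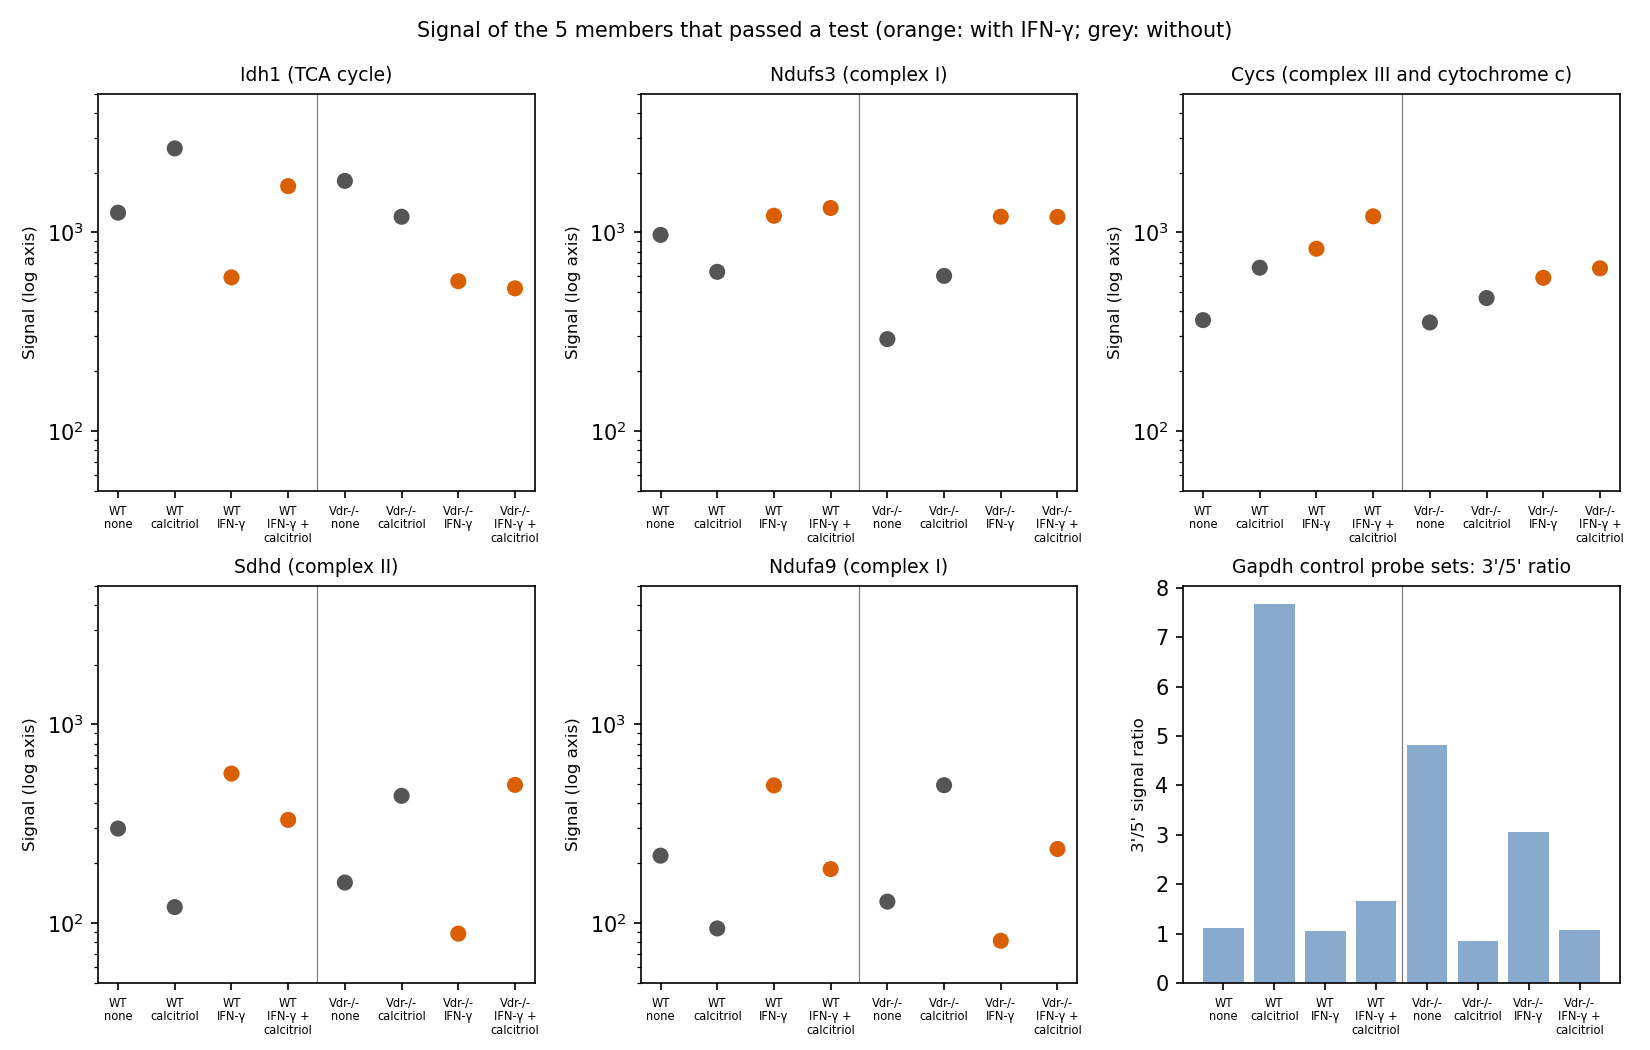
Signal on each of the 8 arrays (log axis, deposited intensity units) for the 5 genes called in a contrast, with 1 point per array and no error bars because each group has 1 array; the last panel gives the Gapdh 3'/5' ratio of each array as bars. Ndufs3 is higher on all 4 arrays with IFN-gamma, and Ndufa9 and Sdhd are lowest on the 3 arrays with the highest Gapdh 3'/5' ratio.

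Besides Ndufs3, no complex I gene was called with IFN-gamma, and the median of all 24 was 0.10, with 15 above 0. The lowest change was that of Ndufa7, an accessory subunit (-0.26 ± 0.22, SE). Ndufs8, an iron-sulfur subunit, read 715.3, 1585.7, 938.9 and 515.4 without IFN-gamma and 986.8, 1914.5, 1411.3 and 1227.1 with it, in the order wild type untreated, wild type with calcitriol, Vdr-/- and Vdr-/- with calcitriol. It was higher in 4 of 4 pairs with groups that overlapped, and its change of 0.64 ± 0.22 did not pass (limma, adjusted p = 0.146). Ndufs3, Ndufa6 and Ndufa10 were the 3 of 56 genes whose arrays with IFN-gamma all lay above those without, against 3.11% of all tested probe sets. None of the 56 had the opposite arrangement, against 3.69%. A second, dim probe set of Ndufa10 changed by -0.53 and its groups overlapped.

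In complex II, 2 of the 4 genes had changes above 0 and the median was 0.10. Sdhb was highest in the group with 0.48 ± 0.22 (limma, adjusted p = 0.341) and higher in 4 of 4 pairs, and Sdhc was lowest with -0.32 ± 0.34. All 7 genes of complex III and cytochrome c had changes above 0, with a median of 0.27. They ran from 0.17 for Uqcrb to 0.82 for Cycs. Uqcrc1 was 0.78 ± 0.28 (limma, adjusted p = 0.161), with 1 of its 4 pairs not higher. In complex IV the median was 0.37 with 5 of 6 above 0. The lowest was Cox4i1, the isoform of the regulatory subunit found in most tissues (-0.16 ± 0.22), and the highest Cox7c (0.66 ± 0.65), a dim probe set whose signals of 5.2 to 87.1 straddled the floor. Cox5b, at 0.62 ± 0.26 (limma, adjusted p = 0.298), had 6 tested probe sets that ran from 0.31 to 0.76.

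**Figure D3:**
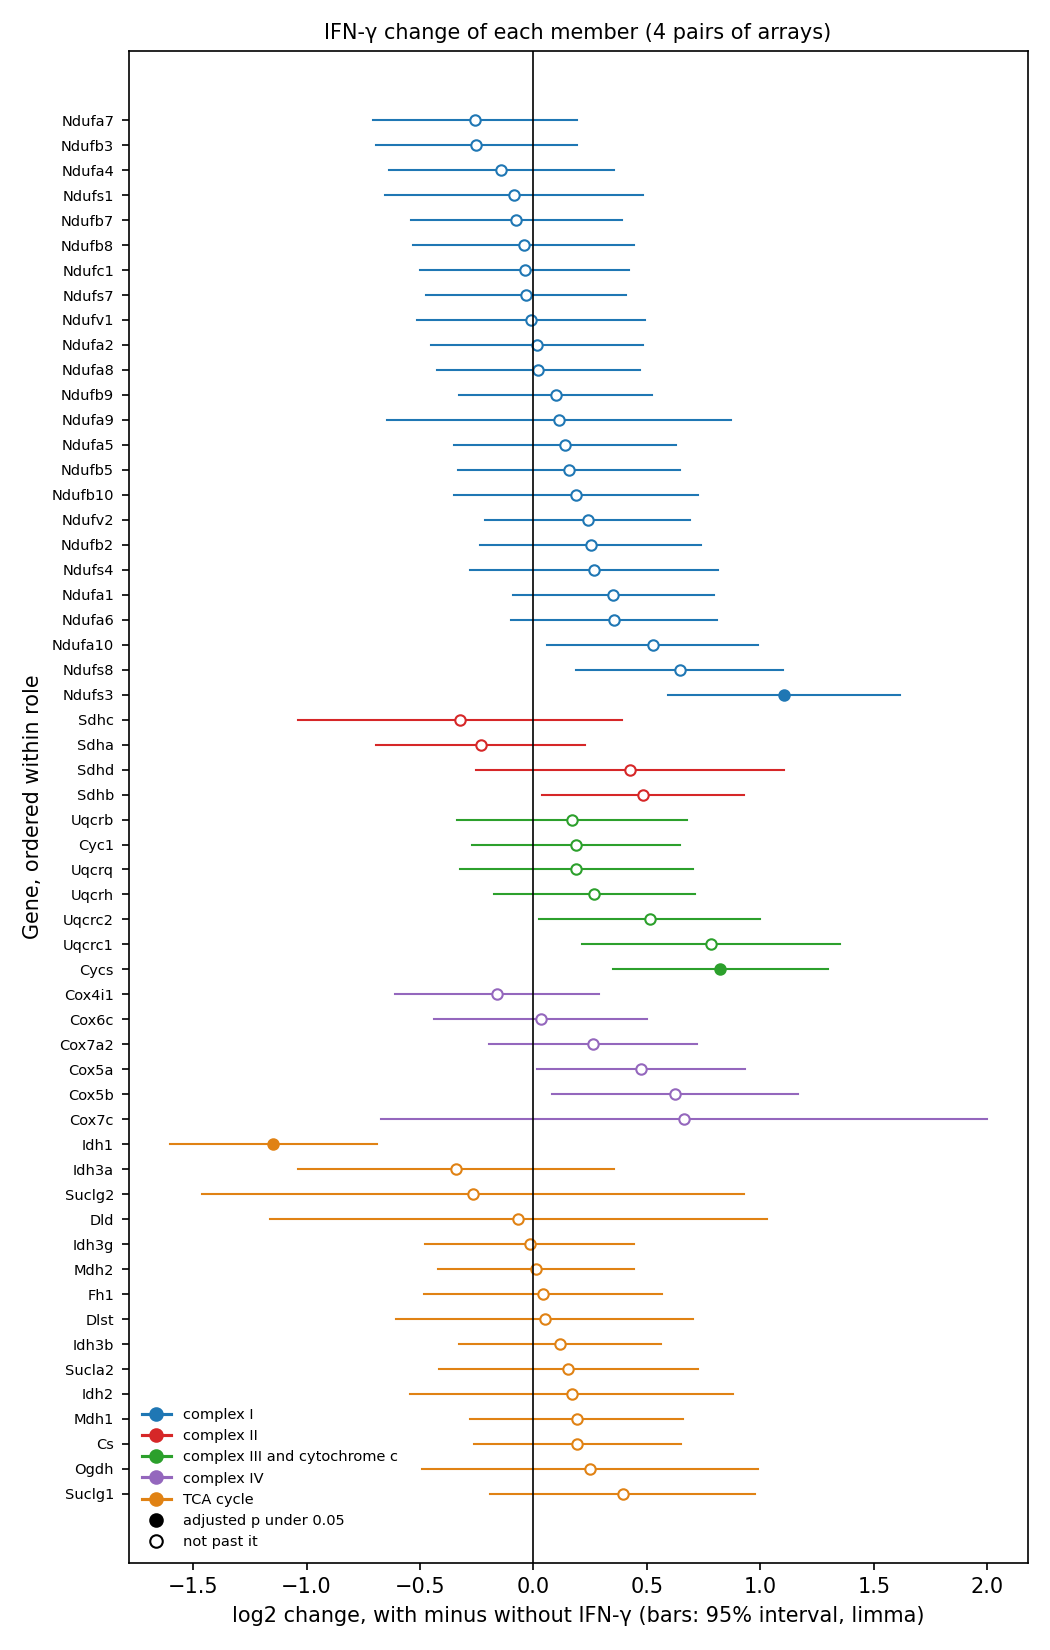
Log2 change with IFN-gamma for each of the 56 genes (points, mean of 4 pairs; bars, 95% confidence interval from limma), grouped by role; filled points passed the test. The 3 called genes are Ndufs3 and Cycs above 0 and Idh1 below it, and all 7 genes of complex III and cytochrome c lie above 0.

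The TCA cycle genes are described apart from the chain. Idh1, the cytosolic NADP-dependent isocitrate dehydrogenase, was the 1 gene of 15 that passed the test, and no gene of a mitochondrial cycle enzyme passed. Its signals without IFN-gamma were 1256.7 and 2645.8 in wild type, untreated and with calcitriol, and 1816.4 and 1198.8 in Vdr-/-. With IFN-gamma they were 593.8 and 1708.8 in wild type, without and with calcitriol, and 568 and 522.9 in Vdr-/-. Each array with IFN-gamma was below its partner, but the groups overlapped because wild type with both agents read above 2 of the arrays without IFN-gamma. Idh1 fell by 1.15 ± 0.22 (moderated SE, 4 pairs) on the log2 scale, or 2.21-fold (limma, adjusted p = 0.00198), lower in 4 of 4 pairs. A second, dimmer probe set changed by -0.66 and did not pass (limma, adjusted p = 0.608). The brighter one changed by -1.08 and -1.20 in the pairs that hold neither of the 2 arrays with the highest Gapdh ratio. A limma fit without those arrays, which had additive terms in place of the pairs, gave -0.73 (adjusted p = 0.627). RefSeq gives Idh1 a pair of promoter windows, neither of which holds a match to any of the 4 motifs searched. The first (GRCm38.p6, chr1:65186430-65186729, minus strand) is shown as the counterpart of the promoters above, in lower case throughout.
Idh1: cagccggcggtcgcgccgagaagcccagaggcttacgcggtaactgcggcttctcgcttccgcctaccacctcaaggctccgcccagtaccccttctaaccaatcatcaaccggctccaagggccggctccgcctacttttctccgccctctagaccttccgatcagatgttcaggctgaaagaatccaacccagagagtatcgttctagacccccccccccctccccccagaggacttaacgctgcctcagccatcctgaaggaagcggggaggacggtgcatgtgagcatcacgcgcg

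The other 14 TCA cycle genes had changes of -0.34 to 0.39 with IFN-gamma. Citrate synthase, Cs, which condenses acetyl-CoA with oxaloacetate, was at 0.19 ± 0.22 (SE). The mitochondrial NADP-dependent enzyme Idh2 was at 0.17 ± 0.34. Of the NAD-dependent isocitrate dehydrogenase, the catalytic subunit gene Idh3a was at -0.34 ± 0.34, Idh3b at 0.12 ± 0.22 and Idh3g at -0.02 ± 0.22. For the 2-oxoglutarate dehydrogenase complex, which makes succinyl-CoA, the values were 0.25 ± 0.36 for Ogdh, 0.05 ± 0.32 for Dlst and -0.07 ± 0.53 for Dld. The succinyl-CoA ligase genes gave 0.39 ± 0.28 for the shared subunit Suclg1, 0.15 ± 0.28 for the ATP-specific Sucla2 and -0.27 ± 0.58 for the GTP-specific Suclg2. Fumarase, Fh1, was at 0.04 ± 0.25, and the malate dehydrogenases were at 0.19 ± 0.23 for cytosolic Mdh1 and 0.01 ± 0.21 for mitochondrial Mdh2. None of these 14 passed the test, which does not show that they stayed level: the 95% confidence interval of Cs ran from -0.26 to 0.65.

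Other quantities moved with IFN-gamma on the same arrays. The summed signal of the 9 macrophage markers was 72568 to 84375.2 on the 4 arrays without IFN-gamma and 55480.9 to 70547.2 on the 4 with it. A sum weighs bright genes most, and the markers did not all move alike. Of these 9 genes 1 was called higher with IFN-gamma and 0 lower (limma), against 2.15% and 1.27% of all tested probe sets. Their median log2 change was -0.29. For the 8 stromal markers the sums were 390 to 690.1 and 186.7 to 315.6, and for the 8 neutrophil and precursor markers 312.1 to 449 and 223.1 to 293.1. No marker of these lists was at the floor on all 8 arrays, and Col3a1, a fibrillar collagen gene, fell by 2.02 with IFN-gamma (limma, adjusted p = 0.0308). The part of these shifts in the changes of the 56 genes was not tested.

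The change with IFN-gamma can also be read pair by pair. The median change of the 56 genes was 0.20 in untreated wild type, 0.43 in wild type with calcitriol, -0.15 in Vdr-/- and 0.10 in Vdr-/- with calcitriol. For the TCA cycle genes alone these medians were 0.10, 0.41, -0.11 and -0.17, and for the chain 0.20, 0.43, -0.20 and 0.18. When the IFN-gamma effect in wild type was tested against that in Vdr-/-, 0 of the 56 genes passed (limma), as did 0% of all tested probe sets. At an unadjusted p under 0.05 the difference was above 0 for 3 genes, Ndufa9, Sdhd and Ndufs1, against 1.86% of all probe sets, and below 0 for none, against 1.66%.

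Calcitriol was compared with no calcitriol within each genotype, since the receptor through which it acts is absent by label in Vdr-/-. In wild type 0 of the 56 genes passed the test (limma), and 0.576% of all tested probe sets did. At an unadjusted p under 0.05, 13 genes were higher and 6 lower, against 4.4% and 5.88% of all probe sets. This total of 19 was 7 without the 2 arrays with the highest Gapdh ratio, 6 without the untreated arrays, 7 to 10 with any 1 of the 4 pairs left out and 2 without the intensity trend. The median change of the 41 chain genes was 0.43, with 32 above 0, and that of the 15 TCA cycle genes was -0.01, with 7 above 0. By role the chain medians were 0.42 for complex I, -0.33 for complex II, 0.69 for complex III and cytochrome c and 0.69 for complex IV, and the median of all tested probe sets was 0.05. Without the 2 arrays with the highest Gapdh ratio, 1 of which is the wild-type calcitriol array, the TCA cycle median was 0.34. In that fit the genotypes shared 1 IFN-gamma term.

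Among chain genes in wild type the highest changes with calcitriol were those of Ndufa1 (1.10 ± 0.32, SE) in complex I, Sdha, the flavoprotein subunit of complex II (0.11 ± 0.33), Uqcrq (0.81 ± 0.36) in complex III and Cox6c (0.86 ± 0.34) in complex IV. The lowest were those of Ndufa9 (-1.31 ± 0.45), Sdhd (-1.04 ± 0.42), Uqcrc1 (-1.23 ± 0.40) and Cox7c (-0.54 ± 0.94). In the TCA cycle Idh1 was highest at 1.30 ± 0.32 (limma, adjusted p = 0.0681) and Ogdh lowest at -1.23 ± 0.52 (limma, adjusted p = 0.406). Calcitriol and IFN-gamma thus had changes of opposite sign at Idh1 in wild type, and its calcitriol change in Vdr-/- was -0.36 ± 0.32. The test of the calcitriol difference between the genotypes at Idh1, 1.66 ± 0.45, did not pass (limma, adjusted p = 0.0657). In Vdr-/- 0 of the 56 genes passed (limma), against 0.194% of all tested probe sets, and at an unadjusted p under 0.05 there were 5 higher and 3 lower, against 4.28% and 2.07%. By role the Vdr-/- medians were -0.24 for complex I, 0.77 for complex II (4 of 4 genes above 0), -0.14 for complex III and cytochrome c and -0.08 for complex IV. That of all tested probe sets was -0.08. The medians there were -0.11 for the chain and -0.20 for the TCA cycle. Both had no settled sign: the chain median was 0.11 without the 2 arrays with the highest Gapdh ratio and 0.07 without the Vdr-/- pair that lacked IFN-gamma, and the TCA cycle median was 0.081 with a gene's probe sets averaged.

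The calcitriol effect in wild type differed from that in Vdr-/- for Sdhd and Ndufa9, the 2 of 56 genes that passed this test, both lower (limma). Of all tested probe sets 1.5% passed, 1.33% lower and 0.172% higher. At an unadjusted p under 0.05 the difference was above 0 for 12 of the 56 genes and below 0 for 6, against 5.08% and 7.08% of all probe sets. Sdhd encodes the small membrane anchor that holds succinate dehydrogenase in the inner membrane. In wild type it read 299.1 untreated, 120.4 with calcitriol, 565.6 with IFN-gamma and 330.6 with both. In Vdr-/- the same treatments read 160, 437, 88.5 and 496. Calcitriol arrays were thus lower than their partners in wild type and higher in Vdr-/-, with and without IFN-gamma. The difference was -3.01 ± 0.60 (SE) on the log2 scale, an 8.07-fold ratio of the 2 effects (limma, adjusted p = 0.00824). The change in Vdr-/- alone was 1.97 ± 0.42 (limma, adjusted p = 0.0519). A second, dimmer Sdhd probe set gave a difference of -0.13 (limma, adjusted p = 0.98). The Sdhd promoter (GRCm38.p6, chr9:50603800-50604099, minus strand) is shown with a match to TCAAGGTCA, the site of oestrogen-related receptors, in capitals and on the opposite strand.
Sdhd: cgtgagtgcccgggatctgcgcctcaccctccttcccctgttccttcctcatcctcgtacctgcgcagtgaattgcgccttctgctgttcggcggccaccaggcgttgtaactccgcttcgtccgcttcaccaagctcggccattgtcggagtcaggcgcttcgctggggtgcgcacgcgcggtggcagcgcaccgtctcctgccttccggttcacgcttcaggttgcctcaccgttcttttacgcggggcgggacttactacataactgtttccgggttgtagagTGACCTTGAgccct

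Ndufa9 was represented by a single probe set. In wild type it read 218.5 untreated, 94 with calcitriol, 493.1 with IFN-gamma and 187 with both. The Vdr-/- arrays read 128.3, 494.3, 81.5 and 236. The direction with calcitriol was again down in both wild-type pairs and up in both Vdr-/- pairs. The difference was -3.05 ± 0.63 (SE), an 8.27-fold ratio of the effects (limma, adjusted p = 0.0112). Its promoter (GRCm38.p6, chr6:126849095-126849394, minus strand) is shown with a match to AAGATGGCG, the core of the YY1 site, in capitals.
Ndufa9: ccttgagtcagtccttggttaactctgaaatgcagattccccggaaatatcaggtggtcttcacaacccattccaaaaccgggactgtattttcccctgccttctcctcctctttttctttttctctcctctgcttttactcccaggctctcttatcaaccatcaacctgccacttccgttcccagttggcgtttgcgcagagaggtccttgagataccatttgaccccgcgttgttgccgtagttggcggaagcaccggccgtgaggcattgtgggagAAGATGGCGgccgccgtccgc

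For both genes the 3 lowest arrays were wild type with calcitriol, Vdr-/- untreated and Vdr-/- with IFN-gamma, which are the 3 arrays with the highest Gapdh 3'/5' ratio. The calcitriol difference is below 0 when these 3 arrays and wild type with both agents are low against the rest. Low signals there are thus partly built into a call below 0. This set of 3 arrays was picked out by its Gapdh control ratios after the data had been seen, and by actin only 2 of these 3 arrays were raised. In all, 8 of the 56 genes had their 3 lowest signals on these arrays (Ndufa9, Ndufb5, Ndufv2, Sdhb, Sdhd, Idh3b, Ogdh and Dlst), against 2.81% of all tested probe sets. The 1 gene with its 3 highest signals there was Ndufb9, against 3.72%. Without the 2 arrays with the highest ratios the difference was -3.26 for Sdhd and -2.93 for Ndufa9, with no call, in a fit where the genotypes shared 1 IFN-gamma term. The array with the third ratio, Vdr-/- with IFN-gamma, remained in that fit and held the lowest signal of both genes. Calcitriol contrasts without IFN-gamma rest on the labels of the untreated arrays. In the pairs with IFN-gamma, which hold neither of these, calcitriol changed Sdhd by -0.77 in wild type and 2.49 in Vdr-/-, and Ndufa9 by -1.40 and 1.53. A fit without the untreated arrays, in which the genotypes shared 1 IFN-gamma term, gave differences of -3.90 and -3.96 and no call (limma, adjusted p = 0.83 for both). The part of RNA truncation in these differences was not tested. For the same calcitriol difference 4 of the 9 macrophage markers were called lower and 0 higher (limma). Of all tested probe sets 1.33% were called lower and 0.172% higher. The median difference of these markers was -1.06, against 0.16 for all tested probe sets. With calcitriol 2 of these markers were called lower in wild type, and 1 was called higher in Vdr-/-. The part of this marker shift in the differences of Sdhd and Ndufa9 was not tested.

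Probe sets of 1 gene could differ in their signals on the 3 arrays with the highest Gapdh ratio. Ndufb5 had 1 probe set lowest on the 3 arrays and another highest on them, and Ndufb9 likewise. Ndufs7, an iron-sulfur subunit of complex I, read 2896.4, 2874.9 and 2123.5 on these 3 arrays in the representing probe set, and 595.4, 567.2 and 936.9 in its other one. The calcitriol difference was 1.13 by the first and -1.58 by the second. Of the 33 genes with several tested probe sets, 15 had probe sets that differed in sign for the IFN-gamma change and 17 for the calcitriol difference. Ogdh, the first subunit of the 2-oxoglutarate dehydrogenase complex, read 308.9, 91.3, 292.7 and 181.2 in wild type and 74.3, 175.5, 59 and 235.7 in Vdr-/-, in the order untreated, calcitriol, IFN-gamma and both. Its difference of -2.84 ± 0.73 did not pass (limma, adjusted p = 0.0501).

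**Figure D4:**
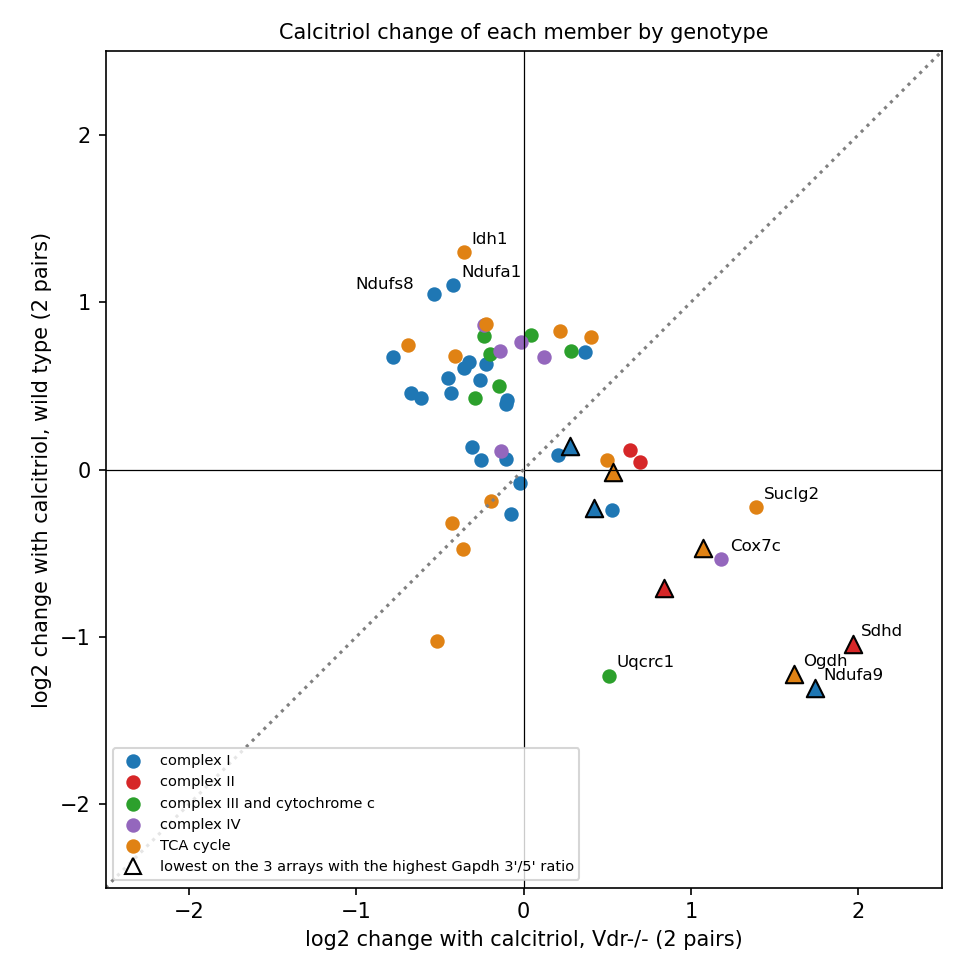
Log2 change with calcitriol in Vdr-/- (x axis) against that in wild type (y axis), each the mean of a pair of contrasts, with 1 point per gene coloured by role and triangles for the 8 genes lowest on the 3 arrays with the highest Gapdh 3'/5' ratio. Sdhd, Ndufa9 and Ogdh lie furthest to the lower right, at 1.97 and -1.04, 1.74 and -1.31, and 1.62 and -1.23.

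Genotype was compared over the 4 treatment pairs. None of the 56 genes passed the test (limma, 0 called), nor did any of all tested probe sets (0%). At an unadjusted p under 0.05 the count was 0 of 56, against 3.38% of all probe sets. The median difference, Vdr-/- minus wild type, was -0.24 for the chain, with 33 of 41 genes below 0, and -0.16 for the TCA cycle, with 12 of 15 below 0, while all tested probe sets had a median of -0.03. Without the pair with both agents the medians were -0.082 and -0.058. In complex I the values ran from -0.51 ± 0.32 (SE) for Ndufa4, now regarded as a complex IV subunit, to 0.24 ± 0.28 for Ndufa6. In complex II they ran from -0.35 ± 0.40 for Sdhc to -0.10 ± 0.29 for Sdha, in complex III from -0.48 ± 0.29 for Cycs to 0.08 ± 0.37 for Uqcrc1, and in complex IV from -0.24 ± 0.31 for Cox5a to 0.01 ± 0.33 for Cox7a2. In the TCA cycle Suclg2 was lowest at -1.21 ± 0.62 and Idh2 highest at 0.64 ± 0.39. Suclg2 read 122.6, 121.6, 79.1 and 58.4 in wild type and 7.4, 80.5, 38.2 and 50.5 in Vdr-/-, in the order untreated, calcitriol, IFN-gamma and both. Each Vdr-/- array was below its partner, the groups overlapped, and the Vdr-/- untreated array was below the floor. Ndufv1, which carries the flavin that accepts electrons from NADH, was the 1 gene whose 4 Vdr-/- arrays (331.9 to 509.7) all lay below the 4 wild-type arrays (520.4 to 639.5), against 1.4% of all tested probe sets, and its adjusted p was 0.999 (limma). The opposite arrangement was seen for 0 of 56, against 0.964%. Of the 3 tested Ndufv1 probe sets only the representing one separated the genotypes. The others overlapped, with differences of -0.18 and -0.06.

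By treatment, the genotype difference was furthest from 0 with both agents. With both agents the median difference of the 56 genes was -0.51, with 47 below 0, while it was 0.12 in untreated cells, -0.17 with calcitriol and -0.09 with IFN-gamma. The wild-type array with both agents was the highest of the 8 for 27 of the 56 genes, against 12.3% of all tested probe sets, and the lowest for 0. By role the counts were 11 of 24 in complex I, 1 of 4 in complex II, 6 of 7 in complex III and cytochrome c, 5 of 6 in complex IV and 4 of 15 in the TCA cycle. Relative to each gene's mean over the arrays, the median on that array was 0.44 for the chain and 0.26 for the TCA cycle, and -0.0023 for all tested probe sets. After quantile normalization the chain median was 0.39 and the TCA cycle median 0.29. Cox5a, a complex IV subunit of the matrix side, read 6014 there and 2277.8 to 3007.4 on the other 7 arrays, and Cox5b read 11015.5 there and 3826.8 to 7667.9. Mdh1 read 3603.2 there and 1358.3 to 2389.6 elsewhere. The summed macrophage markers were lowest on the same array (55480.9), their part in this pattern was not tested, and a single array has no replicate check.

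**Figure D5:**
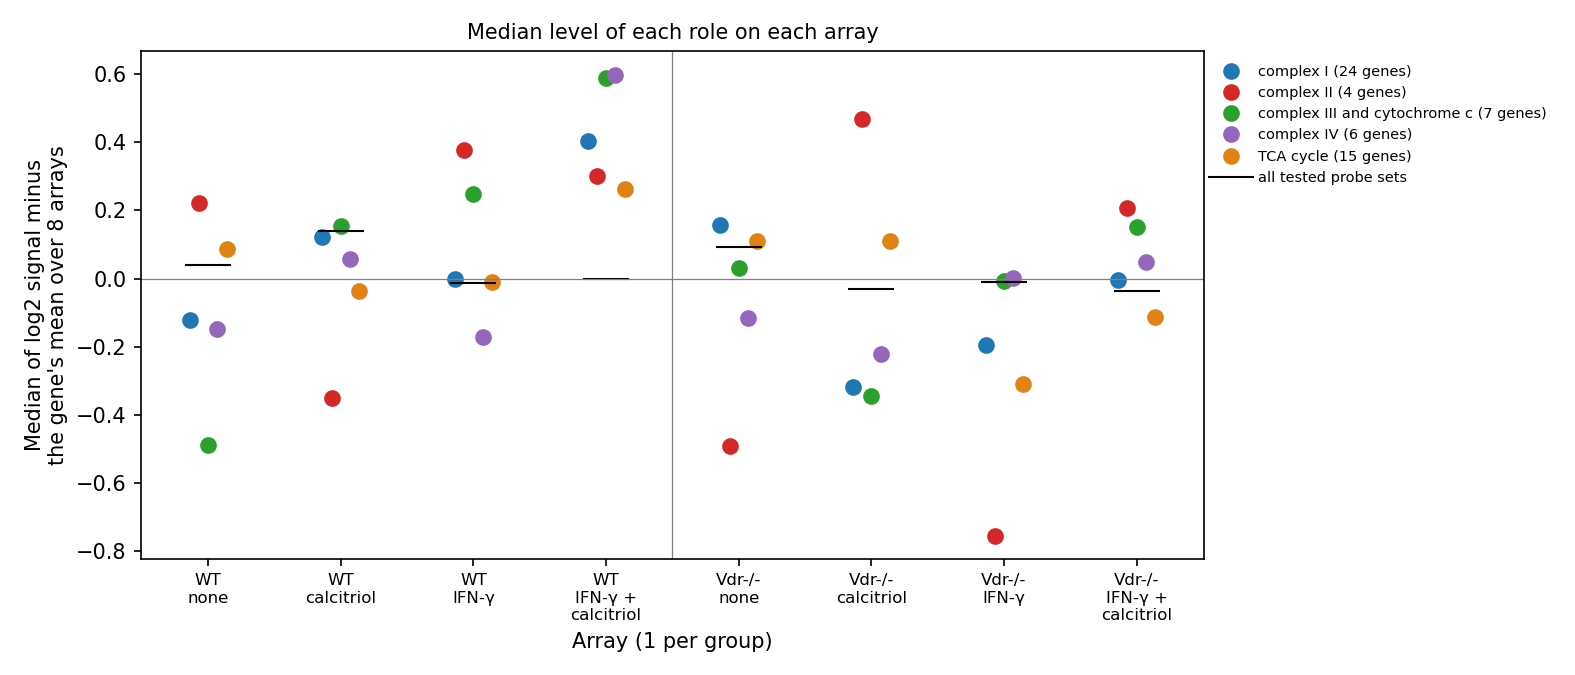
Median over the genes of each role (points) of the log2 signal minus the gene's mean over the 8 arrays (y axis), for each array (x axis); short black bars are the median of all tested probe sets. The wild-type array with both agents is the highest for complexes I, III and IV and the TCA cycle, while complex II is highest with calcitriol in Vdr-/- (0.47) and lowest with IFN-gamma in Vdr-/- (-0.75).

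Other genes of the same pathways were taken from lists. With IFN-gamma 0 of 16 further chain subunits, 0 of 16 ATP synthase genes and 0 of 15 assembly factors passed the test (limma). At an unadjusted p under 0.05 there were 2, 1 and 2. Of all tested probe sets 3.43% passed, 2.15% of them higher, and at an unadjusted p under 0.05 6.16% were higher and 6.27% lower. The list medians were 0.07, 0.15 and -0.0041. The largest changes in these lists were 0.77 for Cox8a (adjusted p = 0.0701) and 0.71 for Uqcrfs1, the Rieske iron-sulfur protein (adjusted p = 0.131), -0.58 for the ATP synthase inhibitor gene Atpif1 and 0.41 for Atp5b, and 1.72 for the copper chaperone gene Sco2 and -1.34 for Ecsit. Of 19 enzymes of pyruvate entry and reactions linked to the TCA cycle, 1 rose, Acod1, which makes itaconate from the cycle intermediate cis-aconitate. It read 3 to 7.5 without IFN-gamma and 928.3 to 2094.6 with it, and rose by 6.55 ± 0.35 (SE; limma, adjusted p = 3.01e-12) against arrays that were all below the floor, which makes the change a lower bound. Of 14 regulators of mitochondrial biogenesis 1 rose, the coactivator gene Ppargc1b (1.73 ± 0.44, limma, adjusted p = 0.0239), which read 35.3 to 74.5 without IFN-gamma and 105.3 to 415.6 with it. Of 29 mitochondrial ribosomal protein genes 1 rose, Mrpl16 (0.94 ± 0.26, limma, adjusted p = 0.0404). The list medians were 0.05 for the enzymes of pyruvate entry and linked reactions, -0.13 for the regulators and 0.14 for the ribosomal proteins. For the calcitriol difference the called genes of these lists were Got1, the cytosolic aspartate aminotransferase (-3.17, limma, adjusted p = 0.00342), and Surf1, a complex IV assembly factor (-2.22, limma, adjusted p = 0.0383).

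Promoter windows from RefSeq (GRCm38.p6) matched 45 of the 56 genes by symbol, 53 windows in all, and were set beside all 32851 windows of the same length. GCGCATGCG was found, on either strand, in 9.43% of the 53 windows and in 1.75% of all windows, and the genes were Cycs, Ndufa8, Uqcrc1 and Ogdh. AAGATGGCG was in 9.43% against 1.4% (Ndufa9, Ndufc1, Ndufs4, Ndufs7 and Idh3g), CCGGAAGT in 5.66% against 3.89% (Ndufs3, Uqcrh and Dlst), and TCAAGGTCA in 1.89% against 0.423% (Sdhd). These motifs do not overlap one another in the promoters shown. The median GC content was 59.7% in the 53 windows and 52.7% in all, and its part in these shares was not tested. A match describes the letters of a window and is no evidence of binding.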

How the data were processed

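Total RNA of 8 mouse macrophage cultures was measured on 1-colour oligonucleotide arrays. The authors deposited linear probe set intensity signals, and the values show that each array had been scaled to 1 trimmed mean (2%, 150.07 to 150.08). Software and settings were not stated in the sources used here.

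Of 22690 probe sets 64 controls were set aside. A floor of 15.5, the 25th percentile of all signals together, was applied before log2, and testing covered the 18058 probe sets with at least 1 signal at or above the overall median of 59.1. The annotation named 1 gene for 20380 probe sets, several for 691 and none for 1555. A gene was represented by its brightest probe set.

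Contrasts were tested two-sided with limma 3.58.1 (R 4.3.3) and an intensity trend, and p-values were adjusted by Benjamini-Hochberg across the 18058 probe sets, with 0.05 as the threshold. IFN-gamma and genotype effects were fitted over 4 pairs as blocks (3 residual degrees of freedom), and calcitriol effects and differences with terms nested within each genotype (2 residual degrees of freedom). Each SE printed is the moderated one of its limma fit. Medians over genes had no test. The pairing comes from the design, since each pair shares the other factors, and not from replicate numbers. The fits were tested on simulated data.

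Named were all called members, the highest and lowest member of each role in each contrast, the brightest and dimmest of each role, all TCA cycle genes with IFN-gamma, and the called (or most changed) genes of each pathway list. Further genes are named for a pattern over arrays or probe sets, after their values were seen. The members and lists were chosen with earlier results of these data known. Figures used Python 3.11.15 and matplotlib 3.10.9.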

Additional observations from a re-analysis of the deposited data

Results flagged for a closer look

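The calcitriol effect differed between the genotypes, by a test of the difference itself, for a pair of members. Wild type minus Vdr-/- was -3.05 for Ndufa9 and -3.01 for Sdhd on the log2 scale (limma, adjusted p = 0.0112 and 0.00824). Both genes were lowest on the 3 arrays with the highest Gapdh 3'/5' ratio, and the part of that ratio in the differences was not tested. By its definition the difference is also lowered by low signals on these 3 arrays. For the same difference 4 of the 9 macrophage markers were called lower (limma), and the part of that shift was not tested. Over 13 alternative settings the difference stayed below 0, from -3.96 to -2.84 for Ndufa9 and from -3.90 to -1.57 for Sdhd, and it passed the test in 4 and 3 of them. The ends -3.96 and -3.90 come from a fit without the untreated arrays, in which the genotypes shared 1 IFN-gamma term. Changes of the filter, the floor or the trend left both differences as they were, so their sign was set in advance there.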

How the results depend on the processing

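With IFN-gamma, 3 of the 56 genes were called, and the count was 1 without the replicate block (no pair blocks), with additive terms in place of blocks or when a gene's probe sets were averaged. It was 0 without a signal filter, without the intensity trend, without the 2 arrays with the highest Gapdh ratio and without both untreated arrays, whose Vdr signals go against their labels. It ran from 0 to 1 when 1 of the 4 pairs was left out, which takes away residual degrees of freedom. For the calcitriol difference the 2 calls became 0 without a filter, with the stricter filter, without the trend, without the 2 arrays and without the untreated arrays, 1 with the mean over probe sets, and 0 to 0 with a pair left out. The calcitriol count in Vdr-/- became 1 (Sdhd) with a floor at the 40th percentile. The 5 called genes kept their direction under every alternative run. Changes of the filter, the floor, the trend or, for IFN-gamma, the blocks left their log2 changes as they were. The direction in those runs was thus set in advance. Ndufs3 ran from 0.69 to 1.37 and passed in 7 of 15, and Idh1 from -1.32 to -0.73 and in 5 of 15. Cycs ran from 0.68 to 0.94 and passed in 1 of 15. For IFN-gamma and genotype the fits without the 2 arrays had additive terms in place of the pairs, and the ends 0.69 and -0.73 come from there. For calcitriol, the fits without the 2 arrays or without the untreated arrays had 1 IFN-gamma term shared by the genotypes. The genotype counts stayed at 0 in 15 alternatives, that without the block included.

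The median change with calcitriol in wild type moved for the TCA cycle from -0.01 to 0.34 without the 2 arrays and ran from -0.083 to 0.34 with a pair left out. For the chain it moved from 0.43 to 0.37 without the untreated arrays and was 0.32 or 0.395 with a wild-type pair left out. Leaving out a pair of the other genotype cannot move these medians. In Vdr-/- the TCA cycle median of -0.20 became -0.24 with quantile normalization, 0.081 with the mean over probe sets and -0.091 without the 2 arrays. It was 0.022 without the untreated arrays and -0.14 or -0.12 with a Vdr-/- pair left out. The chain median of -0.11 became 0.11 without the 2 arrays and 0.16 without the untreated arrays, and ran from -0.23 to 0.07 with a pair left out. The causes were not tested. With IFN-gamma the chain median of 0.19 ran from 0.10 to 0.33 over 15 alternatives and the TCA cycle median of 0.05 from -0.022 to 0.22. For genotype they ran from -0.37 to -0.082 and from -0.35 to -0.058. Leaving off each motif's first base left the share of member windows above that of all windows for each, with CGGAAGT at 13.2% against 6.42%.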
